A study of Homo sapiens with 6 samples.

Results

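The integrated stress response and the unfolded protein response were followed through 35 genes, chosen by symbol, among the 53712 gene names of a count table. They were read as an ATF4 arm of 22 genes, an endoplasmic reticulum (ER) chaperone arm of 8 genes, and 5 genes for the stress sensors and the translation factor subunit eIF2 alpha. The cells were H9, a long-established line of human embryonic stem cells, kept in RSeT, a naive-type medium. From 24 h after passage every culture received 10 nM DZNep, which blocks S-adenosylhomocysteine hydrolase, with 5 nM TSA (trichostatin A), which blocks histone deacetylases. Added to these for 48 h was either UNC1999 at 2.5 µM, which inhibits the Polycomb enzymes EZH2 and EZH1, or UNC2400 at 2.5 µM, an analog that carries N-methyl groups and has little activity. There were 3 libraries per compound and none without either compound. Both groups were exposed to DZNep, TSA and the medium alike, so effects of these, alone or combined with either compound, were not measured. All libraries come from 1 cell line.

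In the integrated stress response, kinases that sense amino acid shortage, ER stress, haem shortage or viral RNA phosphorylate eIF2 alpha. General translation then slows while the transcription factor ATF4 is made, and ATF4 with its partners raises genes of amino acid supply, redox balance and, under lasting stress, cell death. In the unfolded protein response, PERK feeds into this same route, while the ER sensors IRE1 (gene ERN1) and ATF6 raise chaperones and degradation factors through spliced XBP1 and cleaved ATF6. Phosphorylation, cleavage, splicing and translation are not visible in gene counts, so every value here is a transcript level.

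The members' promoters were searched for letters through which these factors are known to act. The RefSeq promoter table (build GRCh38.p14) held 31 of the 35 members, with 42 start sites among its 35116. PSPH, NUPR1, SHMT2 and PYCR1 were not matched. In the 250 bases before each start and on both strands, the C/EBP-ATF response element TGATGNAA was found before 1 start each of CHAC1, CEBPG, HERPUD1 and ASNS, and in 3.14% of all promoters. The ER stress element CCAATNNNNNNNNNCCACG was found before HSPA5, HSP90B1 and XBP1, and in 0.074% of all promoters. The core TGACGTG, bound by XBP1 and ATF6, was found before ALDH18A1 only among the members, and in 1.68% of all promoters. No match overlapped another. The windows below show, for each arm, the members holding a match with the smallest p in the fit. They are given 5′ to 3′ on the gene's strand, with the match in capitals and 40 bases on either side where the window allows.

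CHAC1, chr15:40953222-40953309, plus strand, TGATGNAA on the opposite strand, 209 to 202 bases before the start: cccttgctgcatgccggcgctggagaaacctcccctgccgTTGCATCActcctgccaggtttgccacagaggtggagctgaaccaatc
CEBPG, chr19:33374031-33374112, plus strand, TGATGNAA, 42 to 35 bases before the start: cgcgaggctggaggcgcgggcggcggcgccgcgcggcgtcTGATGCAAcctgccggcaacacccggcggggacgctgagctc
ALDH18A1, chr10:95656724-95656810, minus strand, TGACGTG on the opposite strand, 59 to 53 bases before the start: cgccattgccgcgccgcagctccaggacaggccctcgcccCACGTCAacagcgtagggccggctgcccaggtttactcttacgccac
HERPUD1, chr16:56931926-56932013, plus strand, TGATGNAA on the opposite strand, 176 to 169 bases before the start: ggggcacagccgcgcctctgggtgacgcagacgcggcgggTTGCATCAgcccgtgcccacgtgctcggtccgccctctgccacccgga
HSP90B1, first match, chr12:103930176-103930274, plus strand, ER stress element, 194 to 176 bases before the start: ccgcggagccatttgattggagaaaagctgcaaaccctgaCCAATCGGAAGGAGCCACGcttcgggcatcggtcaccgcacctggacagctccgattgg
HSP90B1, second match, chr12:103930281-103930379, plus strand, ER stress element on the opposite strand, 89 to 71 bases before the start: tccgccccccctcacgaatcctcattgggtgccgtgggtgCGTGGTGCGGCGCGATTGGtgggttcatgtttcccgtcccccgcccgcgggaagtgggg
HSPA5, chr9:125241351-125241449, minus strand, ER stress element, 66 to 48 bases before the start: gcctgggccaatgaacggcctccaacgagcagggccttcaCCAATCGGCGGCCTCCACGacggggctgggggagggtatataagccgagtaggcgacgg

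A match describes these letters only, and no binding was measured. In the counts, the 4 members with TGATGNAA were higher in UNC1999, although CHAC1, CEBPG and ASNS did not pass once gene length and GC were offset. Of the members with the ER stress element, HSPA5 and HSP90B1 were lower and XBP1 did not pass. XBP1 passed as lower once gene length and GC were offset. ALDH18A1, with TGACGTG, was lower.

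Total counts ran from 29699441 to 42345448 per library. The pluripotency markers POU5F1, NANOG, SOX2, LIN28A, LIN28B, TDGF1, DPPA4 and SALL4 were all well expressed, with a summed level of 6494 to 6577 CPM (counts scaled to a common library total with TMM factors) in UNC2400 and 5418 to 6036 in UNC1999, where 4 of the 8 were lower. Among 7 endoderm and 8 trophoblast markers, only AFP and KRT7 passed 1 CPM in any library, and CGB5 had no count. Feeder or fibroblast markers summed to 271 to 302 CPM in UNC2400 and 181 to 197 in UNC1999, mainly from COL1A1, COL1A2 and THY1, while LUM and DCN were at or near 0; of 5 tested, 4 were lower and 1 higher. Neural markers summed to 371 to 386 and 334 to 364 CPM, mainly from TUBB3, and 3 of 5 tested were lower. Their part in the results was not tested, and in bulk RNA fewer cells of a type and less RNA per cell cannot be told apart. UNC1999 replicate 1 stood nearer to the UNC2400 libraries than the other UNC1999 libraries on the first principal component, at 20.1 against 39.3 and 41.4, with UNC2400 between -35.2 and -31.6. Of the 28 members that passed the test, 25 (89.3%) had UNC1999 replicate 1 as the UNC1999 library nearest to the UNC2400 mean, as had 69.7% of all genes that passed.

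Neither arm moved as a whole. The role groups within the ATF4 arm were set with earlier results of these data known. Within the ATF4 arm, 4 of 6 stress-induced transcription factors and 6 of 7 effectors were higher (2 and 5 with offsets for gene length and GC), led by PPP1R15A (2.60-fold) and DDIT3 (2.39-fold), while most biosynthetic enzymes were lower, led by ALDH18A1 (0.62 of its UNC2400 level). Within the ER chaperone arm, the abundant chaperones HSP90B1, HSPA5 and PDIA4 were lower and HERPUD1, DNAJB9 and EDEM1 higher. With the offsets DNAJB9 did not pass and XBP1 passed as lower. Among sensors, EIF2AK4, ATF6 and EIF2AK3 were lower and ERN1 higher. All 35 members passed the low-count filter and were tested by edgeR's quasi-likelihood test with Benjamini-Hochberg adjustment over 17596 genes, at a threshold of 0.05. NUPR1 passed the filter through UNC1999: only 2 of its 3 UNC2400 libraries reached the filter's cutoff. Its values enter the medians of the ATF4 arm and of that arm's transcription factors.

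Of the 35 members, 17 were higher, 11 lower and 7 did not pass. About every second gene tested passed (52.7%; 26.8% higher and 25.9% lower), so a single passing member is not unusual in these libraries. With a fitted change of over 1.5-fold required as well, 6 members were higher (PPP1R15A, DDIT3, ERN1, VLDLR, SESN2 and CEBPB) and 2 lower (EIF2AK4 and ALDH18A1), beside 8.81% and 8.65% of all genes tested. Values of the 2 groups did not overlap for 29 members, beside 60.6% of all genes. The median log2 fold change (UNC1999 minus UNC2400) was 0.26 in the ATF4 arm, 0.01 in the ER chaperone arm and -0.37 among the sensors, beside 0.02 over all genes. With the length and GC offsets the medians were 0.02 in the ATF4 arm, -0.21 in the ER chaperone arm and -0.31 among the sensors, beside -8.9e-05 over all genes. Whether the replicates are independent cultures is not stated in the labels. The p-values then reflect only how much the libraries of a group varied, which may be technical.

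**Figure D1:**
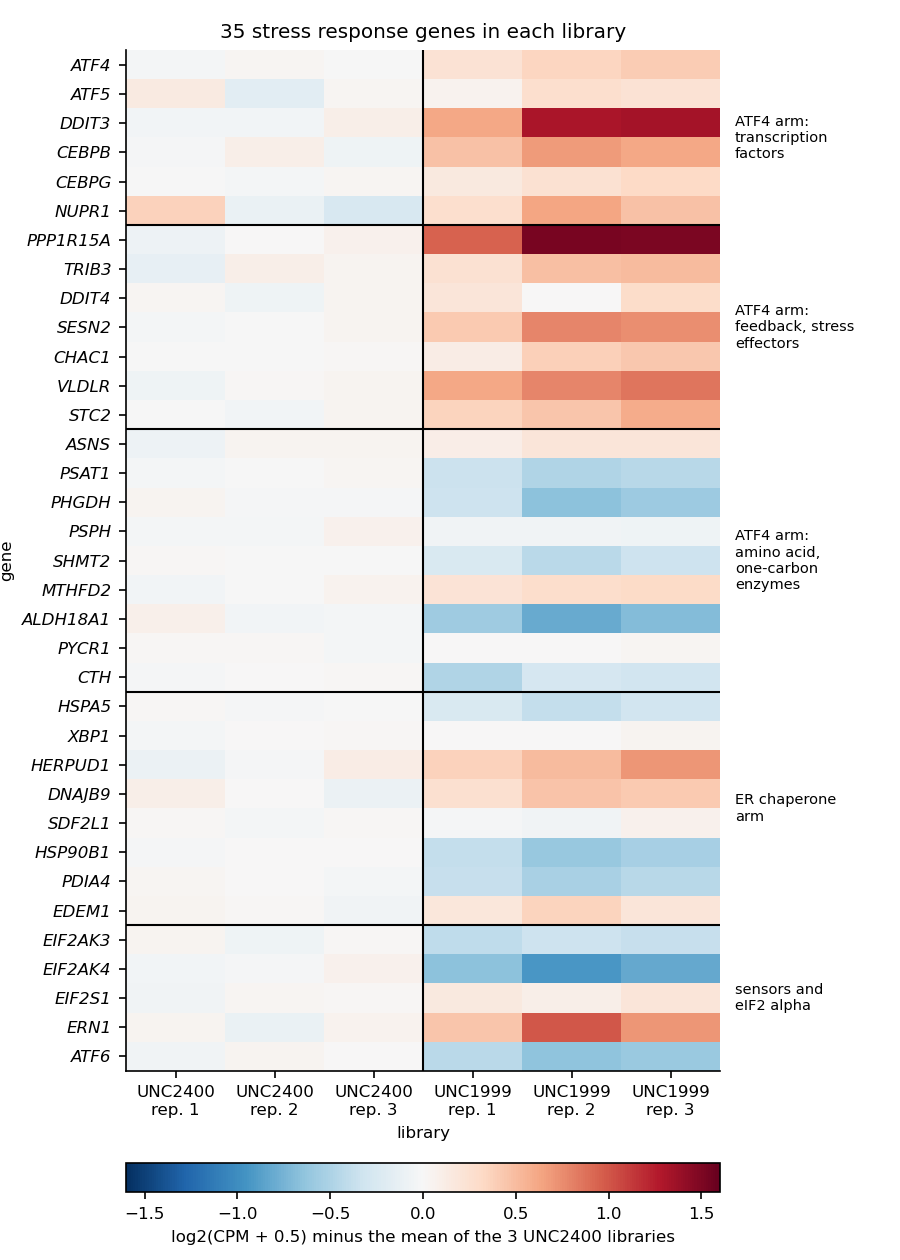
Each row is 1 of the 35 genes, grouped by role, and each column 1 library; colour is log2(CPM + 0.5) minus the mean of the 3 UNC2400 libraries. The upper 2 groups are mostly red in UNC1999, the enzymes mostly blue, the chaperones and sensors mixed, and UNC1999 replicate 1 is the palest UNC1999 column for most genes.

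Of the 6 transcription factors of the ATF4 arm, 4 rose, none fell and 2 did not pass, beside 26.8% higher and 25.9% lower over all genes tested. The median was 0.47, or 0.22 with the length and GC offsets. Both medians include NUPR1 (0.88, or 0.63 with the offsets), which passed the low-count filter through UNC1999. With the offsets ATF4, CEBPG and ATF5 stood near 0, at 0.02, 0.01 and -0.02, and DDIT3 (0.95) and CEBPB (0.42) stayed higher. ATF4, the central activator, was at 313, 326 and 319 CPM in UNC2400 replicates 1 to 3 and at 377, 406 and 425 CPM in UNC1999 replicates 1 to 3. The groups did not overlap, and the difference was small against its already high level, a log2 fold change of 0.33 ± 0.06 (SE; edgeR adjusted p = 8.26e-05). DDIT3, which encodes the pro-apoptotic factor CHOP, was at 2.60, 2.61 and 2.91 CPM in UNC2400 and at 4.41, 7.44 and 7.57 CPM in UNC1999. UNC1999 replicate 1 lay between the UNC2400 libraries and the other UNC1999 libraries, and the log2 fold change was 1.26 ± 0.18 (SE; edgeR adjusted p = 2.12e-05), or 1.45 without that library.

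DDIT3 shares 355 of its 1307 exon bases with MARS on the opposite strand in GENCODE 29. The kit keeps strand, but whether the counting used it is not given in the sources used here. MARS, at 314 CPM in UNC2400, went the other way and fell by 0.36 ± 0.06 on the log2 scale. MBD6, also on the opposite strand, shares 58 of those bases with DDIT3, and rose by 0.28 ± 0.07 from 21.0 CPM (log2, SE). The part of either gene in the DDIT3 counts was not tested.

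CEBPB, a partner of ATF4 and CHOP, had 15.6, 16.9 and 15.0 CPM in UNC2400 and 22.1, 25.8 and 24.7 CPM in UNC1999, a rise of 0.61 ± 0.08 (log2, SE). CEBPG, which forms dimers with ATF4, averaged 72.9 ± 1.37 CPM in UNC2400 and 86.4 ± 5.03 CPM in UNC1999 (SD, n = 3 each), and rose by 0.25 ± 0.05 (log2, SE). ATF5, a stress-induced relative of ATF4, overlapped between groups, at 12.3 to 15.3 CPM in UNC2400 and 14.4 to 16.8 CPM in UNC1999 (edgeR adjusted p = 0.0865). It passed without UNC1999 replicate 1 (0.24, adjusted p = 0.015) and without UNC2400 replicate 1 (0.26, adjusted p = 0.0474). ATF5 shares 626 of 2954 exon bases with NUP62 on the opposite strand, so its counts carry the same uncertainty. NUPR1, a small stress-induced chromatin protein gene, had only 18, 13 and 7 counts in UNC2400 and 19, 30 and 24 in UNC1999, and its log2 fold change of 0.88 did not pass (95% interval 0.10 to 1.66; adjusted p = 0.0549). Both groups overlapped, and it passed in 4 alternatives, among them without UNC1999 replicate 1 (1.01, adjusted p = 0.0299) and without UNC2400 replicate 1 (1.33, adjusted p = 0.0163).

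The feedback and stress effectors of the ATF4 arm were higher in 6 of 7, with a median of 0.48 and none lower. Over all genes tested, 26.8% were higher and 25.9% lower. With the length and GC offsets 5 effectors were higher and none lower. PPP1R15A (GADD34), the stress-induced subunit that guides protein phosphatase 1 to eIF2 alpha, was at 14.8, 15.7 and 16.5 CPM in UNC2400 and at 30.7, 45.9 and 45.5 CPM in UNC1999. It had the largest log2 fold change of the 35, at 1.38 ± 0.12 (SE; edgeR adjusted p = 8.54e-08), and even its lowest UNC1999 library lay well above every UNC2400 library. VLDLR, a lipoprotein receptor raised by ATF4, was at 19.0, 20.3 and 20.7 CPM in UNC2400 and at 31.1, 34.8 and 36.8 CPM in UNC1999, a rise of 0.77 ± 0.07 (log2, SE). SESN2, a leucine sensor that restrains mTORC1 and is also a p53 target, was at 24.1, 24.5 and 25.5 CPM and at 33.1, 42.9 and 41.8 CPM, a rise of 0.67 ± 0.08 (log2, SE).

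The other effectors moved less. STC2, a secreted glycoprotein gene, rose by 0.48 ± 0.06 from 38.3 ± 1.09 CPM (SD, n = 3), and TRIB3, the pseudokinase that restrains ATF4 and AKT, by 0.42 ± 0.09 from 15.7 ± 1.33 CPM (log2, SE). CHAC1, which degrades glutathione, was at 17.5 to 17.9 CPM in UNC2400 and at 19.1, 23.2 and 23.9 CPM in UNC1999, a rise of 0.32 ± 0.08 (log2, SE). DDIT4 (REDD1), an inhibitor of mTORC1, was at 17.0, 16.0 and 17.2 CPM in UNC2400 and at 19.2, 16.8 and 20.6 CPM in UNC1999. UNC1999 replicate 2 lay within the UNC2400 range, the gene did not pass (0.18, edgeR adjusted p = 0.0828), and without that library it did (0.24, adjusted p = 0.0204).

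**Figure D2:**
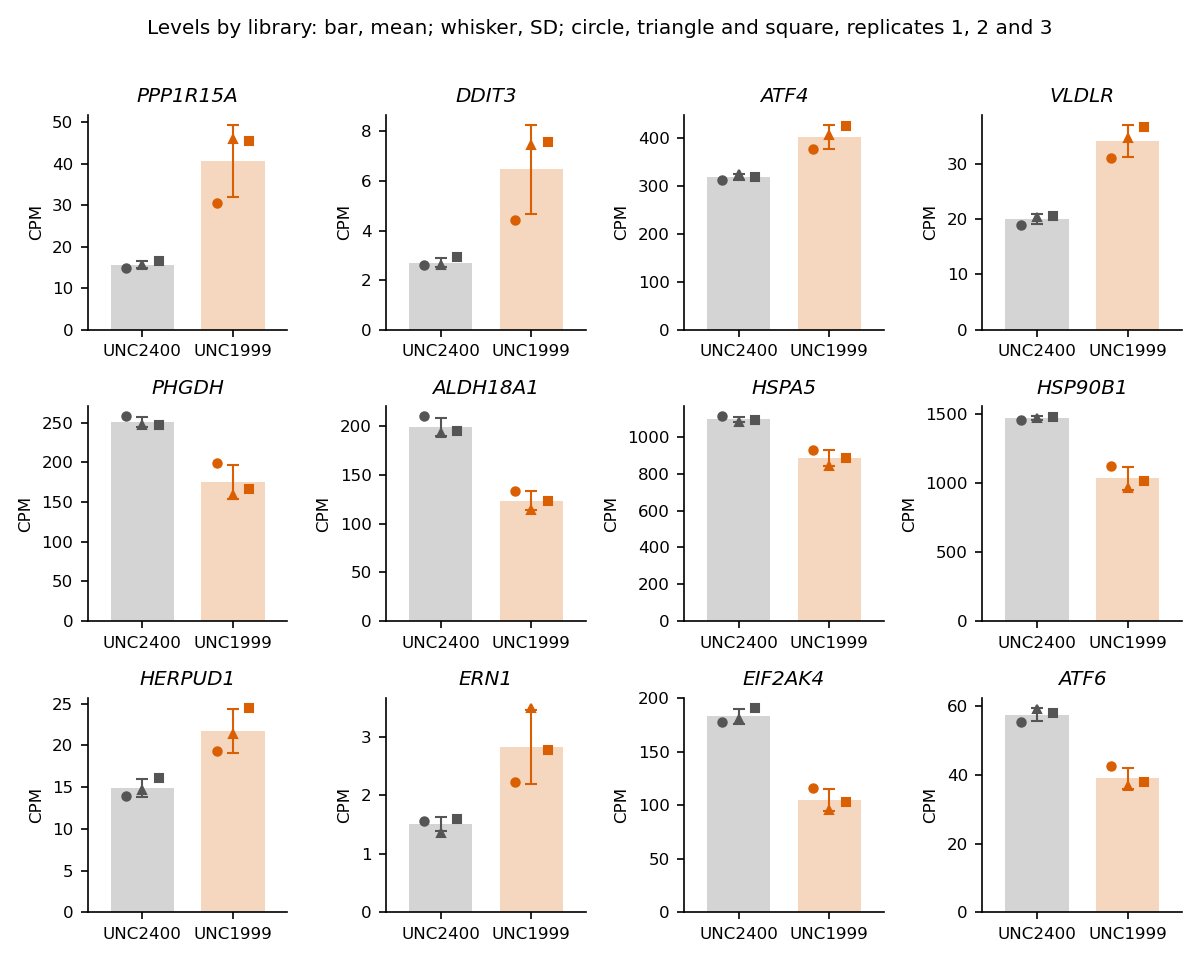
CPM of 12 members by compound; bars are means of 3 libraries, whiskers are SD, and circles, triangles and squares are replicates 1, 2 and 3. PPP1R15A, DDIT3, ATF4, VLDLR, HERPUD1 and ERN1 are higher in UNC1999 and the other 6 genes lower, with no overlap between groups in any panel. Groups did not overlap for 60.6% of all genes tested.

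Of the 9 enzymes of amino acid and one-carbon metabolism, which ATF4 is known to raise, 5 fell, 2 rose and 2 did not pass. The median was -0.33. Over all genes tested, 25.9% were lower and 26.8% higher. With the length and GC offsets 5 enzymes fell and none rose, with a median of -0.37. ALDH18A1, which makes the proline precursor from glutamate, was at 210, 193 and 195 CPM in UNC2400 and at 134, 114 and 123 CPM in UNC1999, and fell by 0.69 ± 0.06 on the log2 scale (SE; edgeR adjusted p = 1.17e-07). PYCR1, which completes proline synthesis in mitochondria, stood at 0.02 (log2; 95% interval -0.10 to 0.13), against an interval of -0.82 to -0.56 for ALDH18A1.

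In the serine branch, PHGDH, the first enzyme, was at 258, 247 and 248 CPM in UNC2400 and at 199, 159 and 167 CPM in UNC1999, and fell by 0.52 ± 0.07 (log2, SE). PSAT1, the second enzyme, was at 333, 337 and 347 CPM and at 267, 243 and 249 CPM, and fell by 0.42 ± 0.05 (log2, SE). PSPH, the third, was at 30.8, 30.7 and 33.01 CPM in UNC2400 and at 30.3, 30.3 and 30.1 CPM in UNC1999, and did not pass (-0.06 on the log2 scale, 95% interval -0.18 to 0.07). The first 2 steps were thus lower in all 3 UNC1999 libraries. PSPH, which did not pass, had groups that did not overlap either, by a small margin. Groups did not overlap for 60.6% of all genes tested.

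The mitochondrial one-carbon genes went opposite ways. SHMT2, which splits serine to glycine and a one-carbon unit, was at 221, 216 and 217 CPM in UNC2400 and at 184, 162 and 173 CPM in UNC1999, and fell by 0.33 ± 0.05 (log2, SE). MTHFD2, the next enzyme of the route, was at 191, 196 and 205 CPM and at 229, 240 and 244 CPM, and rose by 0.27 ± 0.05 (log2, SE; edgeR adjusted p = 0.000346). CTH, which makes cysteine from cystathionine, was at 15.2 to 15.5 CPM in UNC2400 and at 10.9, 12.7 and 12.3 CPM in UNC1999, a fall of -0.36 ± 0.08 (log2, SE). CTH and EIF2AK3 were the only passing members with UNC1999 replicate 1 farthest from the UNC2400 mean. ASNS, asparagine synthetase, rose by 0.16 ± 0.05 from 66.2 ± 3.23 CPM (SD, n = 3; edgeR adjusted p = 0.0166). That call was lost without UNC2400 replicate 1 (0.12, adjusted p = 0.117), UNC1999 replicate 2 (0.14, adjusted p = 0.0639) or UNC1999 replicate 3 (0.13, adjusted p = 0.1).

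**Figure D3:**
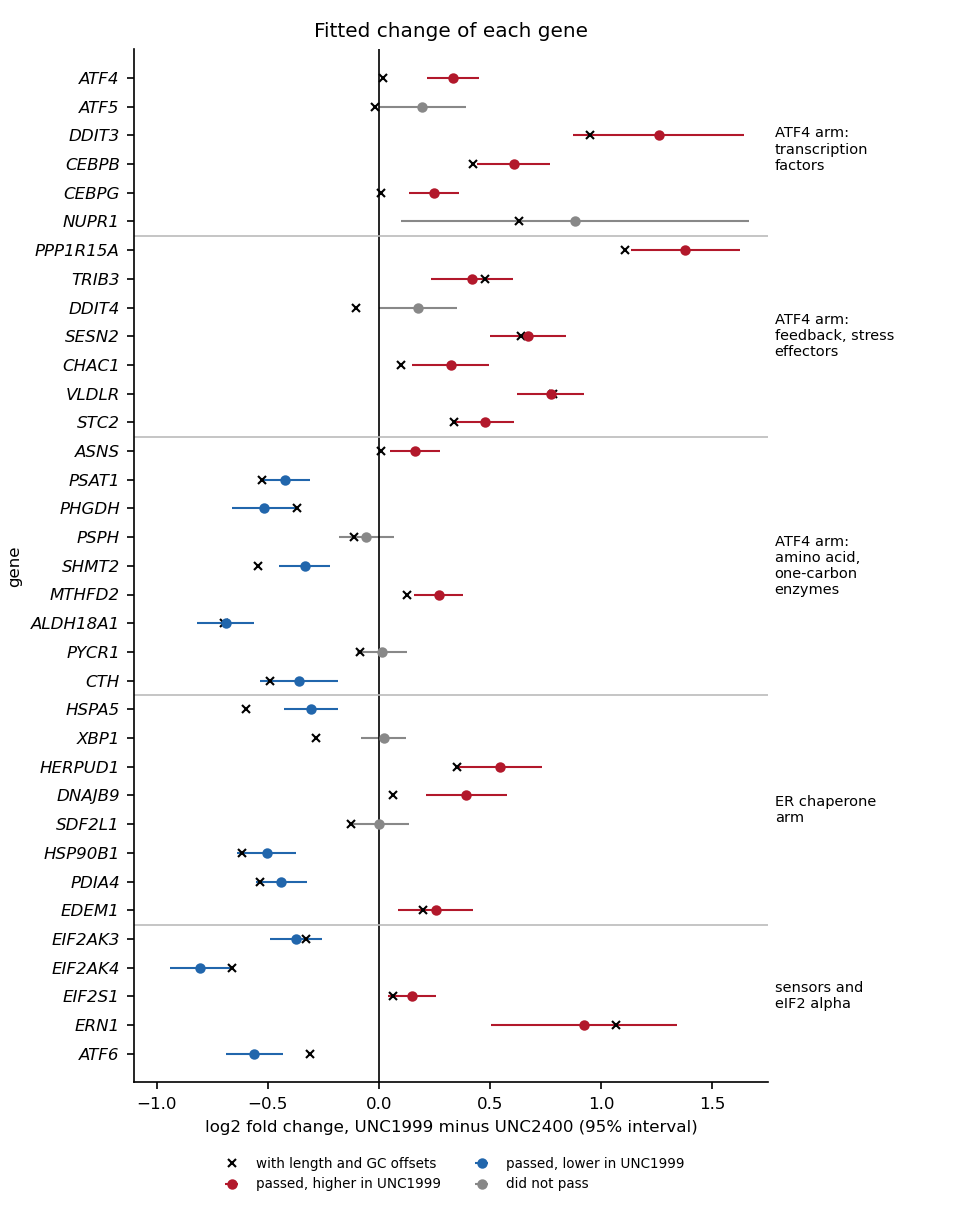
Points are fitted log2 fold changes with 95% intervals for the 35 genes, red for higher, blue for lower and grey for not passed; crosses are the same fit with offsets for exon length, genomic span and GC. Effectors lie right of 0, most enzymes left, and the crosses of ATF4, CEBPG and ASNS lie near 0.

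In the ER chaperone arm, 3 of 8 members were higher, 3 lower and 2 did not pass. Over all genes tested, 26.8% were higher and 25.9% lower, also an even split. With the length and GC offsets 2 members of this arm were higher and 4 lower. HSP90B1 (GRP94), the ER form of HSP90, was at 1455, 1475 and 1480 CPM in UNC2400 and at 1127, 961 and 1018 CPM in UNC1999, and fell by 0.51 ± 0.06 on the log2 scale (SE; edgeR adjusted p = 4.94e-06). HSPA5 (BiP), the main ER chaperone and the brake on the ER sensors, was at 1112, 1082 and 1094 CPM and at 929, 843 and 888 CPM, and fell by 0.31 ± 0.06 (log2, SE; edgeR adjusted p = 0.000238). PDIA4, a disulfide isomerase, was at 442, 433 and 421 CPM and at 336, 302 and 318 CPM, and fell by 0.44 ± 0.05 (log2, SE). In all 3 genes every UNC1999 library lay under every UNC2400 library. Groups did not overlap, in either direction, for 60.6% of all genes tested. The arm's summed level was 3203 to 3220 CPM in UNC2400 and 2335 to 2613 CPM in UNC1999.

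HERPUD1, a membrane factor of ER-associated degradation, was at 13.9, 14.6 and 16.1 CPM in UNC2400 and at 19.3, 21.3 and 24.5 CPM in UNC1999, a rise of 0.54 ± 0.09 (log2, SE; edgeR adjusted p = 7.53e-05). DNAJB9 (ERdj4), a co-chaperone of BiP and a target of XBP1, was at 12.5, 11.8 and 11.0 CPM and at 14.2, 16.4 and 15.8 CPM, a rise of 0.39 ± 0.09 (log2, SE). EDEM1, which sends misfolded glycoproteins to degradation, rose by 0.25 ± 0.08 from 14.3 ± 0.563 CPM (SD, n = 3; edgeR adjusted p = 0.0128). The EDEM1 call was lost without UNC1999 replicate 2 (0.18, adjusted p = 0.0814) or UNC2400 replicate 3 (0.22, adjusted p = 0.066). XBP1, whose spliced form is the IRE1 effector, was at 144 to 149 CPM in UNC2400 and 148 to 152 CPM in UNC1999, with an interval of -0.08 to 0.12 for its log2 fold change. SDF2L1, another ER chaperone component, had an interval of -0.13 to 0.14.

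All 5 genes of the sensors and eIF2 alpha passed, 2 higher and 3 lower, beside 52.7% of all genes tested. EIF2S1 did not pass with the length and GC offsets or without the low-count filter. EIF2AK4 (GCN2), the kinase that senses uncharged tRNA, was at 178, 181 and 191 CPM in UNC2400 and at 116, 95.4 and 103 CPM in UNC1999, the largest fall of the 35 members at -0.80 ± 0.06 (log2, SE; edgeR adjusted p = 4.3e-08). EIF2AK3 (PERK), the ER-resident kinase, was at 51.0, 47.2 and 49.9 CPM and at 37.0, 39.3 and 38.1 CPM, and fell by 0.37 ± 0.06 (log2, SE). ATF6, the ER-bound factor released on stress, was at 55.5, 59.3 and 58.0 CPM and at 42.5, 36.7 and 38.0 CPM, and fell by 0.56 ± 0.06 (log2, SE). None of these 3 overlapped between groups, and neither did 60.6% of all genes tested.

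ERN1 (IRE1 alpha), the ER nuclease that splices XBP1, was low throughout, at 1.56, 1.36 and 1.59 CPM in UNC2400 and 2.23, 3.49 and 2.77 CPM in UNC1999, from 45 to 123 counts per library. It rose by 0.92 ± 0.20 (log2, SE; edgeR adjusted p = 0.000881). EIF2S1, which encodes eIF2 alpha itself, was at 149, 159 and 157 CPM and at 173, 165 and 177 CPM, and rose by 0.15 ± 0.05 (log2, SE; edgeR adjusted p = 0.0219). The call was lost without UNC2400 replicate 1 (0.12, adjusted p = 0.122), UNC2400 replicate 3 (0.15, adjusted p = 0.0643) or UNC1999 replicate 3 (0.11, adjusted p = 0.187).

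Per kilobase of exon (the joined exons of all transcripts in GENCODE 29), the highest members in UNC2400 were HSP90B1 at 313, HSPA5 at 280, PSAT1 at 155, PDIA4 at 132 and ATF4 at 127 CPM per kb. The lowest were NUPR1 at 0.0686, ERN1 at 0.138 and DDIT3 at 2.07 CPM per kb. Across the 35 members, Spearman's rho between this level and the log2 fold change was -0.69, against -0.08 across 14835 tested genes with a length. Genes are not independent replicates and the UNC2400 counts enter both measures, so these values are descriptions. ATF4 and MTHFD2 were the members above 40 CPM per kb that rose, and CTH, ATF6 and EIF2AK3 lay under 10 CPM per kb and fell.

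**Figure D4:**
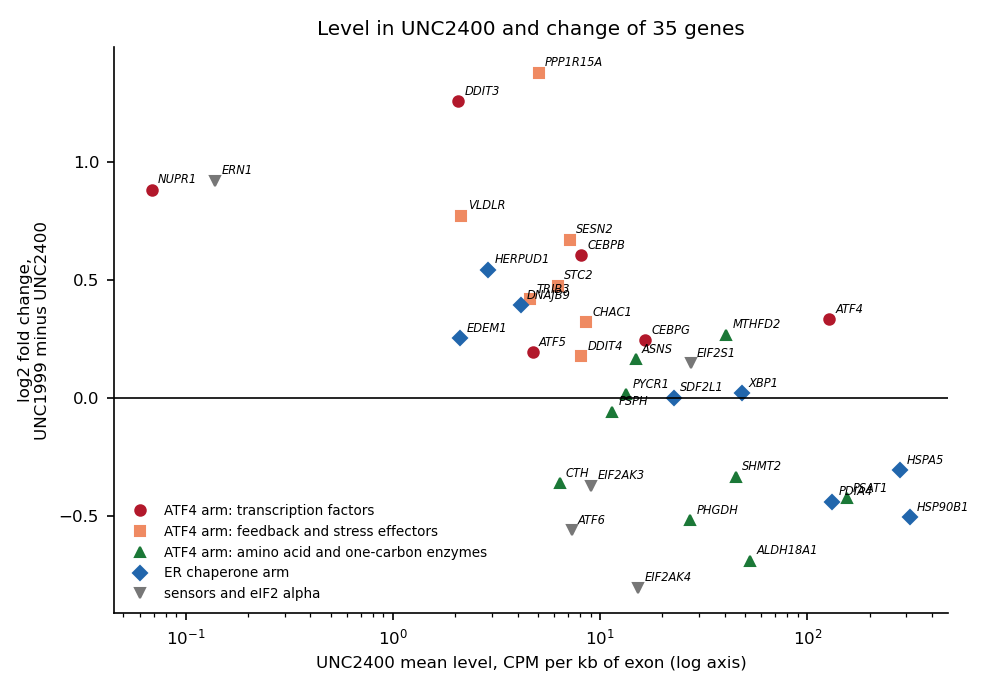
Each point is 1 of the 35 genes, with its UNC2400 level in CPM per kb of exon on a log axis and its log2 fold change, marked by role. Effectors and low-level ER genes lie at the upper left, and HSP90B1, HSPA5, PDIA4 and PSAT1 at the lower right.

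Genomic span also differed by direction: members that rose had a median span of 14.8 kb and members that fell 32.95 kb. Over all genes that rose and fell it was 17.0 and 70.6 kb. The 7 members that did not pass had a shorter median span than either, 6.04 kb. With offsets for exon length, span and GC content, 10 of the 35 members were higher and 12 lower. In the same fit 4171 of all 17596 genes tested were higher and 4330 lower. ATF4 (0.02, adjusted p = 0.798), CEBPG (0.01, 0.882), CHAC1 (0.10, 0.27), ASNS (0.01, 0.907), MTHFD2 (0.13, 0.0627), DNAJB9 (0.06, 0.55) and EIF2S1 (0.06, 0.369) then no longer passed by edgeR's test. XBP1 turned lower and passed (-0.29, adjusted p = 0.00022). PPP1R15A (1.10 on the log2 scale), DDIT3 (0.95), VLDLR (0.78), SESN2 (0.64) and ERN1 (1.07) kept their calls, as did all 11 members that were lower.

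Genes of the same pathway outside the 35 were read from 7 lists. The counts of each list stand beside 26.8% higher and 25.9% lower over all genes tested, and several lie near these shares. Of 21 tested further targets of ATF4, 6 rose and 10 fell, with a median of -0.12. With the length and GC offsets 6 rose and 9 fell, with a median of -0.02. ATF3, a stress-induced repressor, rose by 1.61 ± 0.17 from 7.15 ± 0.633 to 21.8 ± 6.91 CPM (SD, n = 3 each), and SLC3A2, the heavy chain shared by several amino acid transporters, by 0.92 ± 0.09 (log2, SE). ALDH1L2, a mitochondrial folate enzyme, fell by 1.19 ± 0.07 from 32.1 ± 1.36 to 14.1 ± 1.25 CPM (SD, n = 3 each), and GPT2, mitochondrial alanine aminotransferase, by 0.55 ± 0.06 (log2, SE).

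Of 20 cytosolic tRNA synthetases, many of which ATF4 raises, 14 fell, none rose and 6 did not pass, with a median of -0.27. The glutamyl-prolyl enzyme EPRS fell by 0.70 ± 0.06, the isoleucyl enzyme IARS by 0.73 ± 0.06, the leucyl enzyme LARS by 0.52 ± 0.07 and the valyl enzyme VARS by 0.45 ± 0.06 (log2, SE). With the length and GC offsets 17 fell and none rose.

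Among 15 genes of the eIF2 and eIF2B machinery, 5 rose and 7 fell, with 2 to 3 higher in 9 of the 14 alternatives. GCN1L1, the ribosome-bound activator of GCN2, fell by 0.75 ± 0.07 and EIF2AK1, the haem-regulated eIF2 alpha kinase, by 0.30 ± 0.05 (log2, SE). PPP1R15B, the constitutive counterpart of PPP1R15A, rose by 0.39 ± 0.05, and EIF2B4, a subunit of the eIF2 exchange factor, by 0.28 ± 0.05 (log2, SE). The EIF2B4 call was lost with the offsets (0.02, edgeR adjusted p = 0.775).

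Of 23 further ER folding genes, 12 fell and 3 rose (1 without UNC1999 replicate 3), with a median of -0.20. The calcium-binding chaperone CALR fell by 0.55 ± 0.06, the glycoprotein folding sensor UGGT1 by 0.62 ± 0.07, the chaperone HYOU1 by 0.52 ± 0.07 and the reductase DNAJC10 by 0.43 ± 0.06 (log2, SE). Of 21 genes of ER-associated degradation and translocation, 7 rose and 7 fell. The lectin OS9 and the segregase VCP fell by 0.35 ± 0.05 and 0.35 ± 0.06, and the translocation factor SEC62 rose by 0.31 ± 0.05 (log2, SE).

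Of 14 signalling genes around ATF6, IRE1 and the CREB3 family, 2 rose and 4 fell. CREB3L2 and ATF6B, both ER-bound factors, fell by 0.61 ± 0.06 and 0.42 ± 0.06, and the apoptosis effectors BAX and BAK1, which also bind IRE1, both rose by 0.32 ± 0.05 (log2, SE). The BAX call was lost with the offsets (0.12, edgeR adjusted p = 0.0583). Of 12 mitochondrial folding and protease genes, 5 fell and 2 rose. Without UNC1999 replicate 3 none was called higher. The mitochondrial HSP90 gene TRAP1 fell by 0.84 ± 0.08, SPG7 by 0.51 ± 0.07 and LONP1 by 0.23 ± 0.05, and CLPX rose by 0.18 ± 0.05 (log2, SE), a call lost without UNC1999 replicate 3 (0.15, adjusted p = 0.0528).

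**Figure D5:**
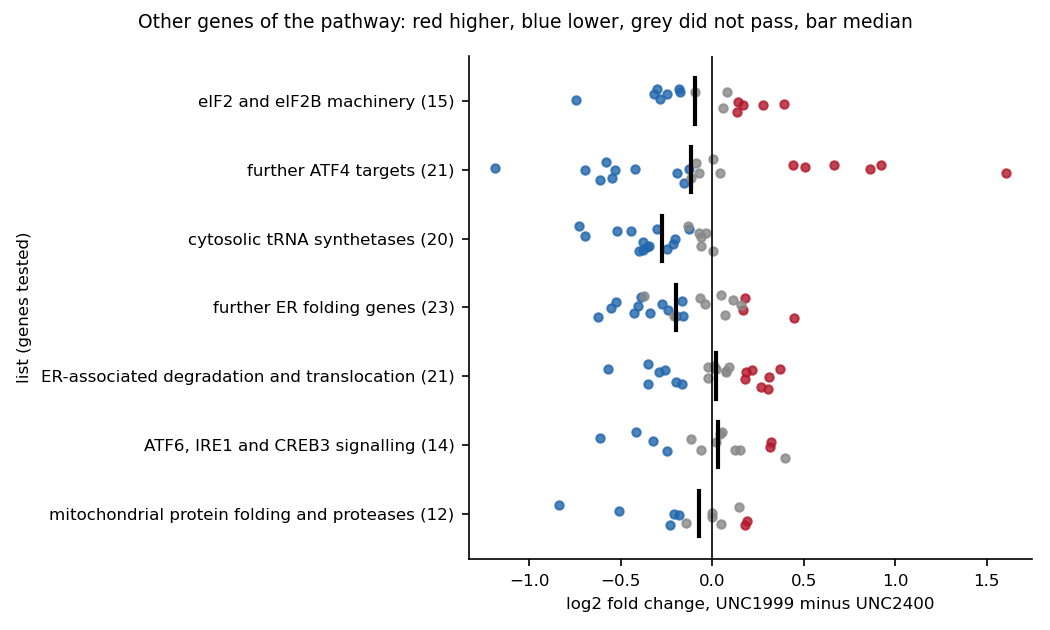
Each point is 1 tested gene of 7 lists of the pathway outside the 35, with its log2 fold change; red is higher, blue lower, grey not passed, and the black bar is the list's median. The tRNA synthetases have no red point, and ATF3 and ALDH1L2 are the outermost points.

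The authors' deposited table lists all 35 members. Its log2 fold changes differed from those fitted here by at most 0.03, for example 1.35 for PPP1R15A, 1.23 for DDIT3 and -0.82 for EIF2AK4 in the authors' deposited table. EIF2S1, called higher here, had an adjusted p of 0.0611 in the authors' deposited table, and PYCR1 and SDF2L1, both near 0, had the opposite sign there.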

How the data were processed

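Poly(A) RNA libraries were made with a strand-keeping kit from 200 ng of RNA each, per the labels' protocols. The authors deposited whole-number counts per gene name. The build hg19 and the tools featureCounts, TopHat2 2.0.13, Subread 1.5.0 and Trim Galore 0.4.0 are listed, without roles, per the submitters' processing notes. How strand and reads with several matches were handled in counting is not given in the sources used here. Also deposited were log2 values named as batch-corrected, which were not used, and the authors' comparison table of test scores, p-values and log2 fold changes, per the file headers.

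Groups came from the titles. The counts were fitted with edgeR 4.0.16 in R 4.3.3 (TMM, edgeR's low-count filter with a minimum count of 10, quasi-likelihood test, two-sided, group only), with p-values adjusted over 17596 genes. The fit was tested on simulated data in which few genes were changed. Its behaviour where about every second gene passes, as here, was not tested. Alternatives were RLE and upper-quartile scaling, no filter, DESeq2 1.42.0, limma-voom 3.58.1, a replicate block, offsets for exon length, span and GC (mgcv 1.9.3, values for 84.3% of genes and all 35 members) with and without the block, and each library left out. Gene coordinates are not given because the annotation used, GENCODE 29, is of another build than the counts; promoter windows are RefSeq's, on GRCh38.p14. All 35 members are named; of each pathway list, the 4 tested genes with the smallest p, except 1 that is not reported here. The members and lists were chosen with earlier results of these data known.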

Additional observations from a re-analysis of the deposited data

How the results depend on the processing

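Each of the 35 members was refitted under 14 alternatives, and 23 kept their side of the threshold and, where called, their direction in all of them, 20 of them members that passed; XBP1 alone turned to a called fall, at -0.29 with the length and GC offsets, with or without the replicate block. ATF4 arm members called higher went from 12 to 7 with those offsets, with or without the block. Called-higher sensors and eIF2 alpha went from 2 to 1 with no low-count filter and with the offsets, with or without the block, and were 1 to 2 when each library was left out. Members lower by over 1.5-fold went from 2 to 4 with the offsets, with or without the block, and were 2 to 5 when each library was left out, the 5 being without UNC1999 replicate 1. Among other counts, transcription factors called higher went from 4 to 2 with the offsets, enzymes called higher from 2 to 1 without the filter and 0 with the offsets, genes of the eIF2 machinery called higher from 5 to 3 with RLE scaling and DESeq2 and to 2 without the filter and with the offsets, and mitochondrial folding genes called higher from 2 to 1 with the offsets. The cause was not tested. Deviations of same-numbered libraries correlated weakly, at 0.02, 0.08 and 0.12, and those of differently numbered libraries at -0.14 to 0.06. Whether the replicate numbers mark pairs of libraries was not tested. With the replicate block 13 members of the ATF4 arm were higher, 4867 of all genes were higher and 4695 lower. Counting depth limits NUPR1 most, at 7 to 30 counts per library.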
